A study of Homo sapiens with 3 samples.

Results

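Transcripts of 9 human genes that package DNA were followed in IMR-90 cells, a line of human fetal lung fibroblasts. The genes were the histone variants H2AX, H2AZ1, H2AZ2, H3-3A, H3-3B and MACROH2A1, and the replication histone chaperones CHAF1A, CHAF1B and ASF1B. They were chosen by gene name, with earlier results of these data known. All probe sets annotated to 1 of these genes were taken, which gave 32 of the 54613 probe sets on the array. Of these, 24 were annotated to a single gene and covered 8 of the 9 genes. The other 8 were annotated to H3-3A and H3-3B together with H3P6 or MIR4738, and H3-3B had no probe set of its own.

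Cells were transfected for 24 h with a control siRNA (siRNA GL3) or with 1 of 2 siRNAs against SETD8, called SETD8 siRNA 1 (SETD8-1) and SETD8 siRNA 2 (SETD8-2) here. Serum was 10% in all cultures, and no other treatment or genotype is labelled. Each siRNA was represented by 1 culture and 1 array, so the error between cultures is unknown and no p-value was computed. Knockdown by a transfected siRNA is transient, and every knockdown array was compared with the same control array. SETD8, current symbol KMT5A, is the methyltransferase that places 1 methyl group on lysine 20 of histone H4. The brightest KMT5A probe set read 938.9 with the control siRNA, 431.4 after SETD8 siRNA 1 and 584.1 after SETD8 siRNA 2. Its log2 fold changes of -1.12 and -0.68 were smaller in size than the scatter of 1.72 defined below. All 4 KMT5A probe sets read lower with both siRNAs. The dimmer ones read 68.6% to 74.7% of the control after SETD8 siRNA 1 and 73.5% to 86.3% after SETD8 siRNA 2.

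DNA wraps around octamers of 4 core histones. Most histone protein is made during DNA synthesis, whereas most variants are made throughout the cell cycle and are placed at particular sites: H2AX is phosphorylated around DNA breaks, H2A.Z (from H2AZ1 and H2AZ2) marks promoters and other regulatory sites, H3.3 (one protein from H3-3A and H3-3B) is deposited outside replication, and macroH2A carries a large extra domain and is common on silent chromatin. Behind the replication fork, ASF1 hands new H3 and H4 to CAF-1, whose subunits are encoded by CHAF1A, CHAF1B and RBBP4, and CAF-1 is tethered to the fork by PCNA.

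The signal is a linear MAS5 value per probe set, scaled to a common level on each array: the median over all probe sets was between 44.9 and 46.2. Signals under a floor of 11.7 were set to it before taking log2. For each gene the probe set of highest average log2 signal was taken, and 12307 of 19775 genes whose mean signal reached 42.0 were compared. A gene was counted as changed where both siRNAs gave at least 2-fold in the same direction. As a measure of scatter for single genes, the size of the log2 difference between both knockdown arrays was used, which had a 95th percentile of 2.21, 1.72, 1.25 and 1.14 from the lowest to the highest quartile of signal. True differences between the siRNAs are part of that scatter, so it is not array noise alone. All 10 fibroblast markers passed the filter and their summed signal was between 154651 and 170610, but single markers moved: in the order control, SETD8 siRNA 1 and SETD8 siRNA 2, decorin (DCN) read 20075.4, 7745.9 and 22971.2, and lumican (LUM) read 13728.6, 10701.6 and 23797.7. The epithelial markers passed for 1 of 6 genes (summed signal between 113 and 306), the endothelial ones for 3 of 6 (1387 to 2193, of which TEK gave 1251.3 to 2033.1, and CDH5 lay under the floor on all arrays), and the leukocyte ones for 1 of the 4 named genes (101 to 170). The 3 endothelial markers above the filter were all higher with both siRNAs, with median log2 fold changes of 1.13 and 0.44. Sums over different probe sets do not measure amounts of a cell type, and the part of these markers in the values below was not tested.

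Averaged over both siRNAs, the chaperone genes and H2AX had the lowest readings relative to the control, the H2A.Z genes were lower by a smaller factor, and the H3.3 and macroH2A1 probe sets of high signal stayed close to the control. All 8 genes with a probe set of their own passed the signal filter. By the 2-fold rule 3 were lower (H2AX, CHAF1B and ASF1B) and 0 were higher, where 3.23% of all genes compared were lower and 1.5% were higher. Since the genes and lists were chosen with earlier results of these data known, such shares describe the counts and do not test them. At any size, 6 of the 8 were lower with both siRNAs and 0 were higher, against 33.9% and 31.1% of all genes. Counted for SETD8 siRNA 1 alone, 4 of the 8 were past 2-fold lower and 0 higher (all genes 7.75% and 5.48%), as were 4 and 0 for SETD8 siRNA 2 (all genes 6.65% and 4.46%). None of the 8 differed by 2-fold between the SETD8 siRNAs, where 6.38% of all genes were lower and 6.18% higher with SETD8 siRNA 2. The median log2 fold change of the 8 was -0.997 with SETD8 siRNA 1 and -1.01 with SETD8 siRNA 2, beside -0.02 and -0.01 over all genes. In bulk RNA, fewer cells of a kind and less RNA per cell cannot be told apart. The probe sets of H2AX disagreed, and with the mean of each gene's probe sets, or with probe sets that the array design marks as shared left out, which removes all those of H2AX, 2 genes were counted (CHAF1B and ASF1B).

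**Figure D1:**
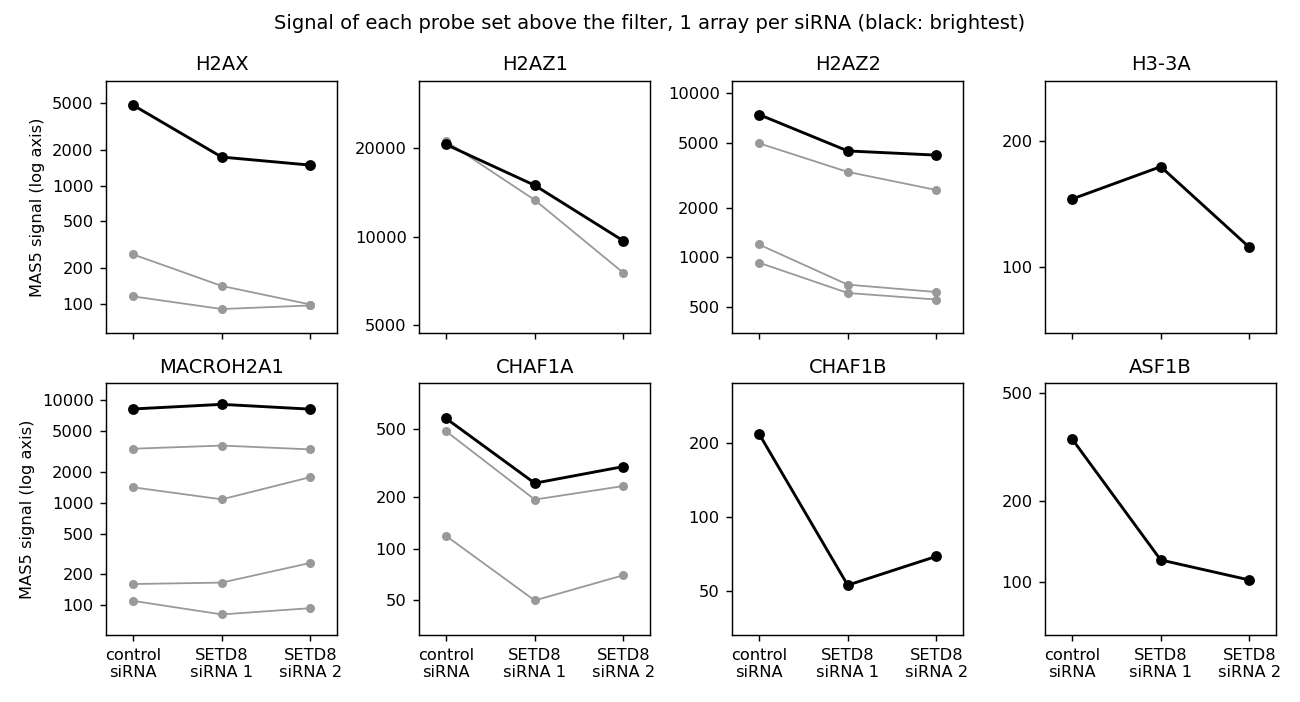
MAS5 signal (log axis) of every probe set above the signal filter for the 8 genes with a probe set of their own, on the control, SETD8 siRNA 1 and SETD8 siRNA 2 arrays; each line joins 1 probe set, and black marks the brightest. The lines of CHAF1A, CHAF1B, ASF1B, H2AX, H2AZ1 and H2AZ2 are lower on both SETD8 siRNA arrays, whereas the brightest line of MACROH2A1 is nearly level, at 8134.6, 9019.4 and 8103.2.

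The promoters of the 6 genes that were lower with both siRNAs are shown because these genes were low on the same arrays. RefSeq windows (GRCh38.p14) from 250 bases before to 50 after each annotated start were matched by gene symbol for all 9 genes (H3-3A had 4 and MACROH2A1 had 2), and the 200 bases before the start are printed, 5′ to 3′ on the gene's strand. The windows were searched on both strands for the E2F site as TTTCCCGC, TTTCGCGC, TTTGCCGC or TTTGGCGC, for the cell cycle homology region as TTTGAA, and for CCAAT. Capitals mark matches. The stretches lie at chr19:4402440-4402639 on the plus strand (CHAF1A), chr21:36385192-36385391 on the plus strand (CHAF1B), chr19:14136590-14136789 on the minus strand (ASF1B), chr11:119095466-119095665 on the minus strand (H2AX), chr4:99950276-99950475 on the minus strand (H2AZ1) and chr7:44848088-44848287 on the minus strand (H2AZ2). H3-3B, at chr17:75779780-75779979 on the minus strand, is printed as the H3.3 gene with 1 annotated start; its own change was not measured, since no probe set is annotated to it alone.
CHAF1A: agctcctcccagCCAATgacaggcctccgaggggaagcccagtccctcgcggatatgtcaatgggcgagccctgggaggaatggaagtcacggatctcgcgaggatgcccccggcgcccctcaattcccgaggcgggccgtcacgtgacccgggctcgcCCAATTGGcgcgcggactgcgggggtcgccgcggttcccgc
CHAF1B: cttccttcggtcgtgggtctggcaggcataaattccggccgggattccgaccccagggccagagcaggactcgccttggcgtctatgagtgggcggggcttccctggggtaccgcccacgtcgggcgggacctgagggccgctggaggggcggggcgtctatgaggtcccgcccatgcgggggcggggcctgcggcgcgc
ASF1B: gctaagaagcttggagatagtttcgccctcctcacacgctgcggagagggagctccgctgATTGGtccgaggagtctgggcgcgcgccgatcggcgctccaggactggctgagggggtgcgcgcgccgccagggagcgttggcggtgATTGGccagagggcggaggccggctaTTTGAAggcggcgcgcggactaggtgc
H2AX: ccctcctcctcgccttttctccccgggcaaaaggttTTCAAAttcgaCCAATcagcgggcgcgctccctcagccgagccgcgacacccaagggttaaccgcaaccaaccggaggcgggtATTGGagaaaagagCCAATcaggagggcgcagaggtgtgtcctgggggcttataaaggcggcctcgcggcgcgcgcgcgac
H2AZ1: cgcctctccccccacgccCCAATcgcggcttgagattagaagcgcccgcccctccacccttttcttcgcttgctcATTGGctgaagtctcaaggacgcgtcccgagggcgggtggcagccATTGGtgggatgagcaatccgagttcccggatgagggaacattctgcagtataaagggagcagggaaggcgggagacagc
H2AZ2: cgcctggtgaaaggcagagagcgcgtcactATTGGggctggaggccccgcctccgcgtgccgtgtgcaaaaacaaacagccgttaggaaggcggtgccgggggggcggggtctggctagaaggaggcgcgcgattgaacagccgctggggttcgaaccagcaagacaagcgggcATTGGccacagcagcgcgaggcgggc
H3-3B: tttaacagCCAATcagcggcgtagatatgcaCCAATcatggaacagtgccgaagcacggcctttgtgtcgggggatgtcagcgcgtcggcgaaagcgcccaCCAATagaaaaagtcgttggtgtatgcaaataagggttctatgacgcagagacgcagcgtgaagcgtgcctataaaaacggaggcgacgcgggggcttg

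None of the 9 genes had one of the E2F words in its window, and 3.99% of all genes with a window did. TTTGAA was found for 3 of 9 genes, against 18.2% of all genes. In ASF1B it starts 27 bases before the start site, in H2AX the reverse complement starts 164 bases before it, and in H2AZ1 it lies just after the start, outside the printed stretch. CCAAT was found for 8 of 9 genes, against 39.7% of all genes, and CHAF1B was the exception. In CHAF1A a run of CCAATTGG holds CCAAT on both strands with an overlap. H2AX, H2AZ2, CHAF1A and H3-3B each held 4 CCAAT matches in the whole window. A match is a description of the sequence, and no match says only that these letters are absent from the window.

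CHAF1B, the middle subunit of CAF-1, had the lowest mean log2 fold change of the 8 genes (-1.85). Its only probe set read 218.3 with the control siRNA, 52.9 with SETD8 siRNA 1 and 69.3 with SETD8 siRNA 2. Both knockdown arrays were low, at 24.2% and 31.7% of the control, and their difference was 0.39 on the log2 scale. The log2 fold changes were -2.04 and -1.66 (every pair of values gives SETD8 siRNA 1 first, and every set of 3 signals starts with the control). They were smaller in size than the scatter of 2.21 between the knockdown arrays at this low signal. In that quartile, 1.82% of genes averaged a change of this size or lower.

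CHAF1A encodes the large subunit of CAF-1, which binds PCNA. Its brightest probe set read 575.6 on the control array, 240.8 after SETD8 siRNA 1 and 301.1 after SETD8 siRNA 2. The next read 484.6, 193.2 and 231.8, and the third read 118.7, 49.8 and 69.9. All 3 probe sets had the same order, control highest and SETD8 siRNA 1 lowest. Their mean log2 fold changes were -1.28 ± 0.04 and -0.92 ± 0.15 (SD over 3 probe sets of 1 array pair, which measures agreement between probes and not between cultures). The gene thus lay past 2-fold with SETD8 siRNA 1 and just short of it with SETD8 siRNA 2 (-0.93 on the brightest probe set), although the second probe set passed with both (-1.33 and -1.06). The 3 probe sets above the filter all carry a suffix that marks shared probes. The remaining probe set carries none, but it was dim, at 22.5, 28.2 and 2.4, and fell under the filter.

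RBBP4, the small subunit of CAF-1, also belongs to several other chromatin complexes. Its brightest probe set read 3976.4, 3308.1 and 2523.1, giving -0.27 and -0.66. Over its 6 probe sets the log2 fold change ranged from -0.30 to 0.48 with SETD8 siRNA 1 and from -0.98 to 0.11 with SETD8 siRNA 2, and 2 of the 6 were lower with both. The subunit genes of CAF-1 therefore differed in the size of their log2 fold changes in these arrays, with both CHAF1 genes further from the control than RBBP4 on the brightest probe sets.

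ASF1B, the form of ASF1 found mainly in dividing cells, read 337.7 (control), 120.8 (SETD8 siRNA 1) and 101.9 (SETD8 siRNA 2) on its only probe set. Its log2 fold changes of -1.48 and -1.73 correspond to 2.80-fold and 3.31-fold lower signal, within the scatter of 2.21 for genes of this signal. ASF1A, its paralogue, read 2219.6, 1794.9 and 1187.0, or -0.31 and -0.90, and both of its probe sets were lower with both siRNAs. NASP, which holds soluble H3 and H4 ahead of ASF1, read 3830.5, 2564.4 and 1342.3. Its log2 fold changes were -0.58 and -1.51, so it was past 2-fold with SETD8 siRNA 2 alone, and the difference between the siRNAs (-0.93) was within the scatter of 1.14.

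H2AX was the 1 gene of the 8 that was lower than the control by more than the scatter of its signal quartile (1.14) with both siRNAs, where 1.52% of all genes were lower by more than the scatter of theirs. The brightest of its 4 probe sets read 4844.8 on the control array, 1753.4 after SETD8 siRNA 1 and 1497.9 after SETD8 siRNA 2. The knockdown arrays lay close together, at 36.2% and 30.9% of the control, with log2 fold changes of -1.47 and -1.69. The second probe set had the same order at a far lower signal, 261.8, 141.2 and 98.2 (-0.89 and -1.41), and the third moved little, with 115.1, 89.9 and 96.4 (-0.36 and -0.26). On the last the signals were 5.2, 41.8 and 15, at or near background, and higher with the SETD8 siRNAs. All 4 carry a suffix that marks shared probes. When all 4 were averaged the log2 fold changes were -0.22 and -0.75, and the 2-fold count was lost. Over the 3 probe sets above the filter they averaged -0.90 and -1.12. Of 10 genes of H2AX signalling, not all of which act on its phosphate directly, none passed the 2-fold rule either way (all genes 3.23% and 1.5%). In that list the break-repair kinase PRKDC read 59.7% and 49.9% of the control, and the adaptor MDC1 had log2 fold changes of -0.71 and -0.98 and the ubiquitin ligase RNF168 -0.35 and -0.33, while the list medians were -0.03 and -0.23.

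H2AZ1 is among the brightest genes of the array, and its 2 probe sets gave the same order. The first read 20548.2 on the control array, 14929.9 after SETD8 siRNA 1 and 9670.1 after SETD8 siRNA 2, and the other read 21079.6, 13316.2 and 7531.0. The control was highest and SETD8 siRNA 2 lowest on both. The log2 fold changes were -0.46 and -1.09 on the first and -0.66 and -1.48 on the other, so H2AZ1 was past 2-fold with SETD8 siRNA 2 alone. The difference between the siRNAs on the first, -0.63, was smaller than the scatter of 1.14. Signals of this height, and those of the H3.3 probe sets, may be compressed, which makes a ratio smaller.

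H2AZ2, which encodes the other H2A.Z protein, was lower with both siRNAs on all 4 of its probe sets. The brightest read 7405.4, 4443.9 and 4189.0, and the dimmest read 927.4, 605.6 and 552.1. Their mean log2 fold changes were -0.69 ± 0.11 and -0.87 ± 0.10 (SD over 4 probe sets). No probe set reached 2-fold with either siRNA. The 4 probe sets thus agreed closely on a factor under 2.

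Of the genes that put H2A.Z into chromatin or take it out, 1 of 16 was lower by the 2-fold rule and 0 were higher, where 3.23% and 1.5% of all genes were: YEATS4, a subunit shared by the SRCAP and TIP60 complexes, read 635.9, 303.0 and 299.9 (-1.07 and -1.08, within the scatter of 1.72). At any size 11 of the 16 were lower with both and 2 were higher, against 33.9% and 31.1% of all genes, with medians of -0.15 and -0.24. ANP32E, the chaperone that removes H2A.Z, had -0.55 and -0.71, and all 3 of its probe sets were lower with both siRNAs. ACTL6A, an actin-like subunit, had -0.73 and -1.08. The catalytic subunit SRCAP was dim, with signals of 55.9, 70.2 and 116.5 (0.33 and 1.06).

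**Figure D2:**
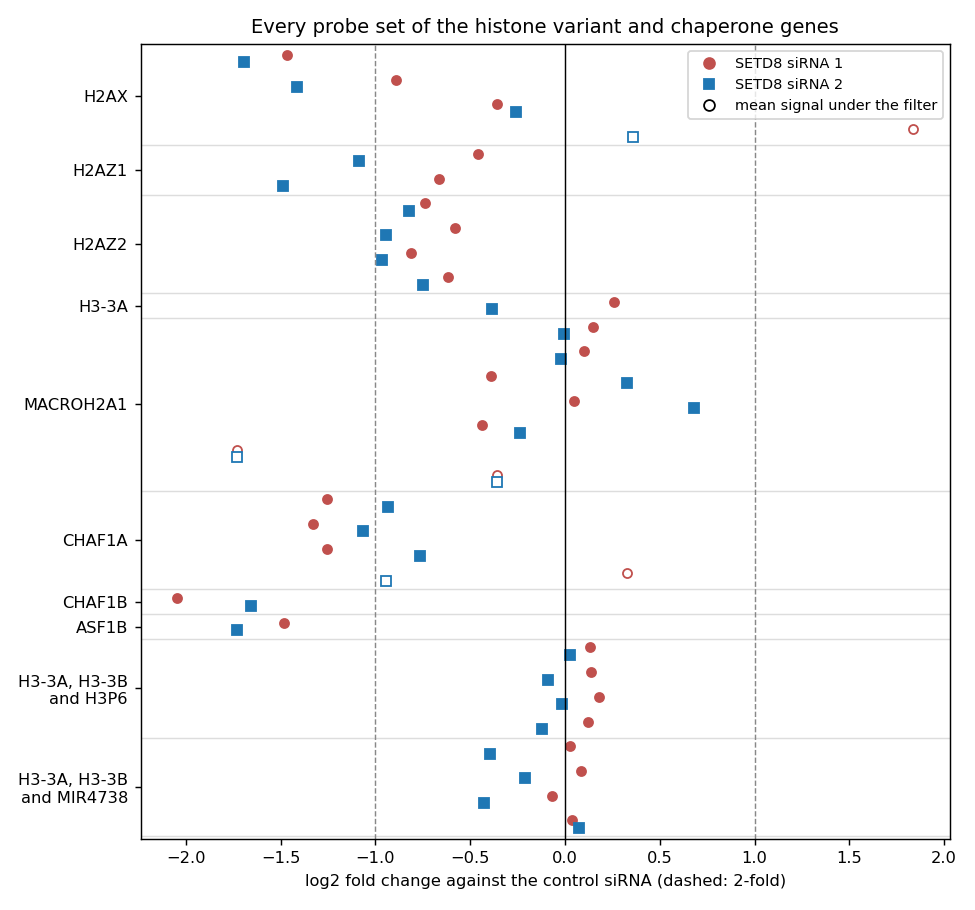
Log2 fold change against the control siRNA for each of the 32 probe sets, by gene and, within a gene, from the brightest at the top; circles are SETD8 siRNA 1, squares SETD8 siRNA 2, and open symbols mark probe sets under the signal filter. The 3 filled CHAF1A pairs, the 4 H2AZ2 pairs and both H2AZ1 pairs lie left of 0, while the 8 probe sets shared by the H3.3 genes lie between -0.43 and 0.18.

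For H3.3 the deposited values cannot separate the 2 genes. The 1 probe set annotated to H3-3A alone was dim and read 145.4 on the control array, 173.7 after SETD8 siRNA 1 and 111.5 after SETD8 siRNA 2, so the knockdown arrays lay on either side of the control (0.26 and -0.38). The 4 probe sets annotated to H3-3A, H3-3B and H3P6 had control signals between 18172.8 and 22231.4, and their log2 fold changes ran from 0.12 to 0.18 and from -0.12 to 0.03. The 4 annotated to H3-3A, H3-3B and MIR4738 ran from -0.07 to 0.09 with SETD8 siRNA 1 and from -0.43 to 0.08 with SETD8 siRNA 2. The furthest of the 8 was 1.34-fold from the control.

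The genes that deposit H3.3 had medians of 0.05 and -0.27, and none of 7 passed the 2-fold rule (all genes 3.23% and 1.5%). HIRA, the scaffold of the H3.3 complex for active genes, read 2134.0, 2209.0 and 1769.4. ATRX, the remodeller that works with DAXX at repeats, read 2835.7, 2941.7 and 2871.5 on its brightest probe set, where the 3 arrays were nearly level, but the log2 fold changes of its 3 probe sets above the filter ran from -0.94 to 0.05 with siRNA 1 and from -0.60 to 0.02 with siRNA 2. DEK, a chromatin protein that also binds H3.3, had -0.996 and -1.11, just under 2-fold with SETD8 siRNA 1. UBN1, a partner of HIRA, had -0.28 and -0.41. DAXX, the H3.3 chaperone that works with ATRX, stood apart between the siRNAs. It read 566.0 on the control array, 1613.6 after SETD8 siRNA 1 and 394.0 after SETD8 siRNA 2. Its log2 fold changes were 1.51 and -0.52 on this brightest probe set, whose suffix marks shared probes. The second probe set had the same signs, at 0.70 and -0.75. On the brightest probe set the difference between the siRNAs was -2.03, beyond the scatter of 1.25 for its signal.

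MACROH2A1 was close to the control on its bright probe sets and mixed on the others. The brightest read 8134.6, 9019.4 and 8103.2 (0.15 and -0.01), and the next read 3339.5, 3583.9 and 3290.6 (0.10 and -0.02). The third went in opposite directions, with 1408.6, 1074.9 and 1769.9 (-0.39 and 0.33). One dimmer read 161.3, 166.6 and 259.0 (0.05 and 0.68), and the dimmest above the filter read 110.7, 81.7 and 94.0 (-0.44 and -0.24). Its sign is not settled: with SETD8 siRNA 1 the log2 fold change was -0.37 when probe sets were averaged and -0.39 without shared ones, and with SETD8 siRNA 2 it was 0.04 after median scaling and 0.33 without shared ones. Of its 7 probe sets 2 were under the filter, 1 of them at 38.8 in the control and under the floor with both SETD8 siRNAs (7.0 and 8.1). The annotation does not say which splice form a probe set detects.

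MACROH2A2, the gene of the second macroH2A protein, read 188.1, 225.8 and 79.4, so the log2 fold changes were 0.26 and -1.24. H2AJ, an H2A variant, was higher with both siRNAs on its brightest probe set (2463.6, 4013.5 and 4034.0, or 0.70 and 0.71), but over 4 probe sets the change with SETD8 siRNA 1 ranged from -1.80 to 0.73. H1-10, a linker histone, read 831.9, 568.8 and 395.1 (-0.55 and -1.07).

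**Figure D3:**
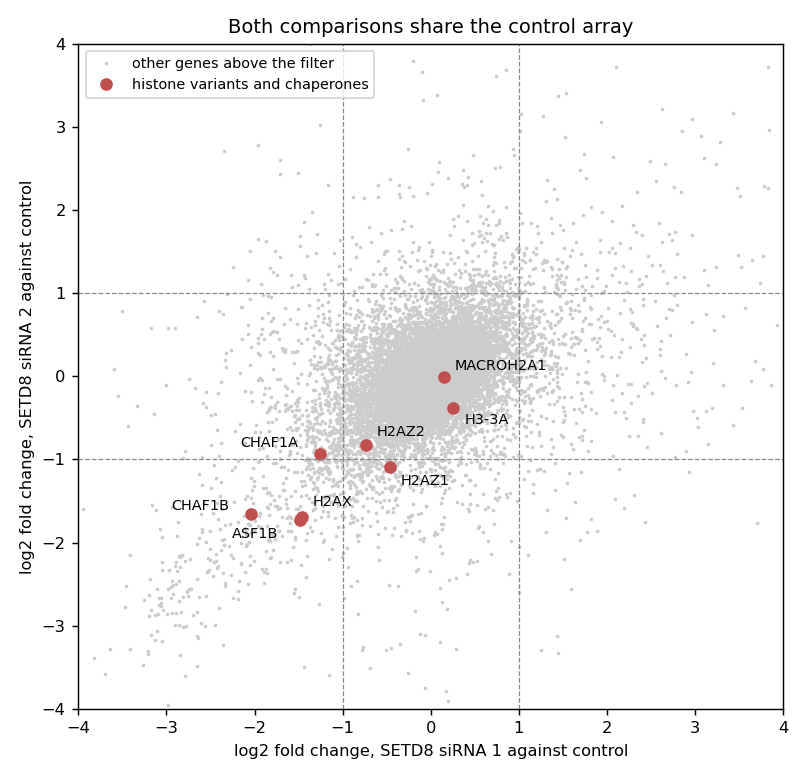
Log2 fold change of each of the 12307 genes above the filter with SETD8 siRNA 1 (horizontal) and SETD8 siRNA 2 (vertical) against the shared control array; dashed lines mark 2-fold, red marks the 8 genes, and 56 genes lie outside the axes. CHAF1B (-2.04 and -1.66), H2AX (-1.47 and -1.69) and ASF1B (-1.48 and -1.73) lie past 2-fold on both axes, CHAF1A and H2AZ1 on 1 axis each.

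The variant that builds the centromere was lower by a larger factor than these. CENPA, the centromeric H3, read 853.8 on the control array, 161.0 after SETD8 siRNA 1 and 123.5 after SETD8 siRNA 2 (-2.41 and -2.79). Those values rest on 1 probe set, whose suffix marks shared probes. HJURP, the chaperone of CENP-A, read 1771.7, 195.9 and 252.5 (-3.18 and -2.81), also on 1 probe set. Of 6 CENP-A deposition genes above the filter, 4 were lower by the 2-fold rule, where 3.23% of all genes were. Among them were the licensing factors OIP5 (-2.83 and -2.83, 1 probe set) and MIS18A (-1.69 and -1.69). The list medians were -2.05 and -2.24.

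The list of replication histone supply and chaperones also holds proteins at or behind the fork, and 15 of its genes passed the filter. Of these, 2 were lower and 0 higher by the 2-fold rule (all genes 3.23% and 1.5%). At any size, 12 were lower and 1 was higher with both (all genes 33.9% and 31.1%). MCM2, a helicase subunit that also binds H3 and H4, read 1383.9, 241.2 and 274.8 (-2.52 and -2.33) on 1 probe set, which is marked as shared. UHRF1, which reads hemimethylated DNA behind the fork, read 6679.3, 1360.9 and 1622.9 (-2.30 and -2.04) on 1 probe set. PCNA, the clamp that recruits CAF-1, read 10321.1, 5461.9 and 4319.3 (-0.92 and -1.26), past 2-fold with SETD8 siRNA 2 alone. The list medians were -0.42 and -0.66.

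Among 11 general nucleosome assembly genes, 1 was lower and 0 were higher by the 2-fold rule (all genes 3.23% and 1.5%), with medians of -0.26 and -0.34. It was HMGB2, a DNA-bending protein abundant in dividing cells, which read 15067.7 on the control array, 2476.4 after SETD8 siRNA 1 and 1925.4 after SETD8 siRNA 2 (-2.61 and -2.97). The acidic chaperones ANP32B (-1.18 and -0.94) and ANP32A (-0.73 and -0.78) were lower by smaller factors.

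**Figure D4:**
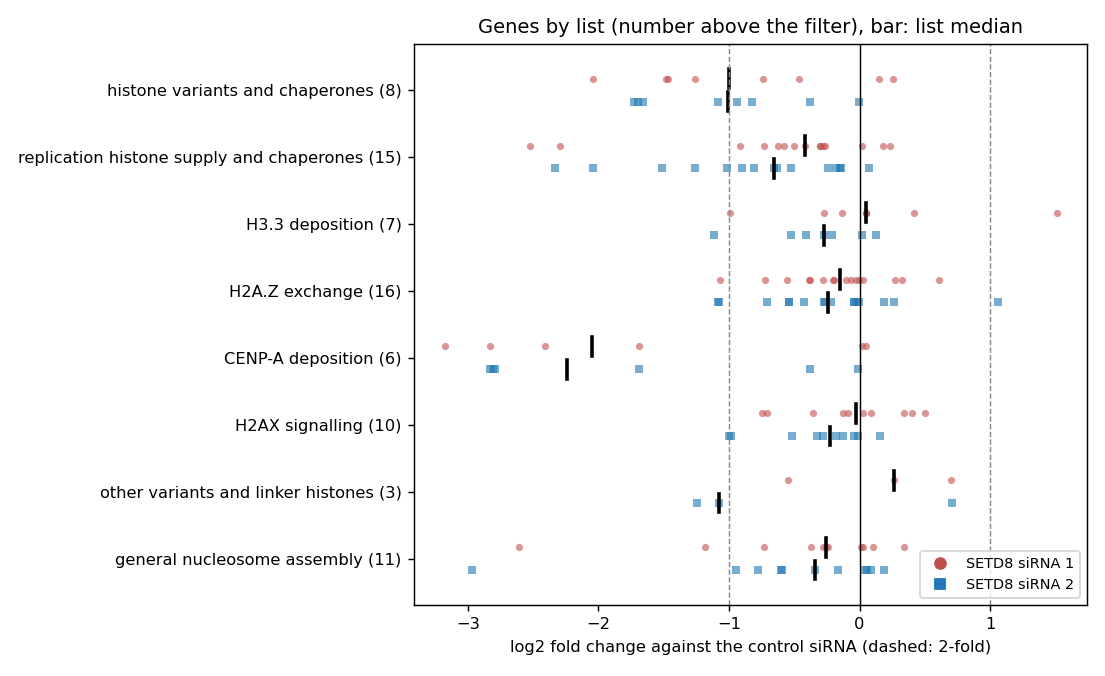
Log2 fold change against the control siRNA of each gene above the filter, by list (number of genes in brackets); circles are SETD8 siRNA 1, squares SETD8 siRNA 2, and black bars are list medians. The medians of the histone variants and chaperones lie at -0.997 and -1.01, those of CENP-A deposition at -2.05 and -2.24, and those of H3.3 deposition at 0.05 and -0.27.

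By the distance between pairs of log2 fold changes over the 3 arrays, the 3 genes nearest to CHAF1B were GTSE1 (-2.02 and -1.65, distance 0.03), the kinesin KIF18A (-2.12 and -1.68, distance 0.08) and RAD54B (-1.99 and -1.74, distance 0.10). In all, 26 of the 12307 genes compared lay within 0.25 of CHAF1B. Both changes share the control array, and those of CHAF1B were within the scatter of 2.21. Whether these genes behave alike was not tested.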

How the data were processed

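IMR-90 cultures, 1 per siRNA, were profiled on 1-colour Affymetrix arrays from 250 ng of total RNA, per the labels' protocols. Each deposited value is an intensity, the linear signal of a probe set, which the authors computed with MAS5 (per the submitters' processing notes, with no version or settings given). Detection calls were not used. Scaling each array to 1 level would hide a shift of all genes. The number of arrays limits the precision.

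Gene names came from the platform annotation at GEO, brought to current RefSeq symbols through gene numbers (41037 of 41091 single-gene probe sets matched). Of the rest, 1801 named several genes and stayed out of gene-level counts, and 11721 were unlisted. The floor of 11.7 is the 25th percentile of all signals, and the filter is the median over probe sets (5.39 on the log2 scale). Genes named were KMT5A, the 9 members, 13 fixed genes, up to 3 genes of each list furthest from the control with 1 sign for both siRNAs, and the 3 genes nearest to the member furthest from the control. MIS18A, TEK, CDH5, DCN and LUM were named after their values were seen. The members and lists were chosen with earlier results of these data known.

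Alternatives were thresholds of 1.5-fold and 3-fold, no filter or one at the 75th percentile, a pseudocount of 16, scaling to a common median, quantile normalization, averaging the probe sets of a gene, and leaving out shared probe sets (names ending in _a_at, _s_at or _x_at). Software was matplotlib 3.10.9, scipy 1.17.1, pandas 2.3.3 and numpy 2.4.6 under Python 3.11.15.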

Additional observations from a re-analysis of the deposited data

How the results depend on the processing

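No paired analysis was possible because each siRNA has 1 array, so leaving out an array was not possible either. The 3 genes of the 8 counted as lower by the 2-fold rule became 1 (H2AX) with a filter at the 75th percentile, which only 4 of the genes pass, 5 at 1.5-fold (CHAF1A and H2AZ2 added) and 1 (CHAF1B) at 3-fold. Over all genes, 398 were lower and 185 higher by that rule. These counts were 737 and 460 without a filter, 204 and 80 with a filter at the 75th percentile, 907 and 565 at 1.5-fold, and 191 and 57 at 3-fold, by the construction of those rules. Of 112 values of member genes and KMT5A under the alternatives, 109 moved by under 1.5 times, 3 by more (both values of H2AX for averaged probe sets, and KMT5A with SETD8 siRNA 1, at -0.48, without shared probe sets), and no value of at least 2-fold changed sign. The 4 changes of sign were all in MACROH2A1. Many of the 112 values could not move, so the count of 109 overstates stability. A change of filter leaves the value of a kept gene as it was, and averaging cannot alter a gene with 1 probe set. Genes lost under a setting, such as H2AX, CHAF1A and H3-3A without shared probe sets, are not among the 112. The medians of the other lists moved by over 1.5 times for CENP-A deposition with a filter at the 75th percentile (-0.84 and -1.04) and for the other variants and linker histones with SETD8 siRNA 2 (-0.18 at that filter and 0.02 without shared probe sets). Low signal limits the precision for CHAF1B, ASF1B and the single H3-3A probe set.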
